A study of Mus musculus with 10 samples.

Results

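The genes described here are 40 nutrient and ion carriers of the solute carrier (SLC) family, among them the mitochondrial carrier Slc25a20. They were listed by name for their known substrates, with earlier results of these data known: 3 carry sugars, 14 amino acids and amines, 1 peptides, 6 inorganic ions, 5 metals, 3 vitamins, 5 lipids or carnitine, 2 nucleosides and 1 dicarboxylates. All 40 were found among the 23810 genes of the deposited count table, each under 1 Ensembl gene identifier. The table holds unique molecular identifier (UMI) counts, that is, counts of captured transcript molecules, for 25204 cells that the authors kept from 10 mouse single-cell RNA-seq libraries.

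There were 8 organoid libraries, grown in Matrigel from crypts of the proximal small intestine. ENR-organoids (3 libraries, at passages 2, 7 and 3 for replicates 1, 2 and 3) received Noggin, EGF and R-Spondin 1. Hyper-organoids (3 libraries, at passages 1, 6 and 3) received EGF, FGF2 and medium conditioned with R-Spondin 1, together with the small molecules LDN193189, Pexmetinib, GSK-3 Inhibitor XV, EPZ6438 and VPA. The -VE-organoids (2 libraries, at passages 1 and 6) were grown without the last pair, VPA being an inhibitor of histone deacetylases and EPZ6438 of the methyltransferase EZH2. All 8 libraries shared a basal medium with N2, B27 and N-acetylcysteine. Replicates 1 and 2 of the Hyper- and -VE-organoids had been derived from ENR-organoids, and replicate 3 of the ENR- and Hyper-organoids from primary crypts. Replicates of 1 number share the first character of their library labels, which is read here as a culture series. The labels themselves name no series. Replicates of 1 number differ from the other numbers in passage and, for replicate 3, in origin. The remaining 2 libraries were colonic crypts, 1 from normal mice and 1 from mice given dextran sodium sulfate (DSS), a detergent that injures the colonic epithelium. Crypts for culture came from mice aged 6 to 12 weeks, and colitis was induced in females aged 8 weeks. The strain behind these libraries, the sex of the mice used for culture and the number of mice in each library were not given in the sources used here. No source says that the replicates came from separate animals, so p-values measure the spread between these cultures.

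Absorption of a nutrient takes a carrier in the brush border, which faces the lumen, and an exit carrier in the basolateral membrane, which faces the blood. Many brush border carriers are driven by the sodium gradient that the basolateral sodium pump maintains, others by protons or by exchange of anions. Enterocytes gain most of these carriers as they leave the crypt and mature along the villus, whereas stem and progenitor cells mainly hold carriers that growth requires.

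The organoid libraries held 89124015 to 170019527 UMIs in 1983 to 4293 kept cells, and the colon libraries 19906845 UMIs in 1132 cells (normal) and 32397122 in 1933 cells (DSS). In all, 79 of 25124 distinct cell barcodes occurred in more than 1 library. Over all kept organoid cells, 5 leukocyte markers summed to 0.422 to 0.709 CPM (UMIs of a gene per 1000000 UMIs of the same cells) and 4 stromal markers to 0.337 to 1.28, against 2609 to 3284 for the epithelial markers Epcam, Cdh1 and Krt8; Ptprc, which defines leukocytes, was at 0 in each organoid library except ENR replicate 2 (0.0325 CPM). The stromal sum was 0.842 to 1.28 in Hyper-organoids and 0.337 to 0.535 in the other organoids, and its part in the results was not tested. Cell classes are the authors' annotation: stem cells, transit amplifying (TA) cells, enterocyte progenitors, enterocytes, goblet, Paneth and enteroendocrine cells. Small classes were labelled TC and RSC. Enterocytes made up 9.78% to 13.1% of the cells of the ENR-organoids, 5.68% to 6.23% of the -VE-organoids and 0.249% to 1.65% of the Hyper-organoids. Enterocyte progenitors made up 22.2% to 34.5%, 4.29% to 4.39% and 0.0852% to 0.107%. The Hyper-organoids held 86 enterocytes and 8 progenitors in all, and replicate 1 held 7 of those enterocytes.

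In ENR-organoids, 29 of the 40 carriers had their highest mean level in the enterocyte class, and each of these 29 was highest there in all 3 libraries. Levels here are in CPM; each transcript is counted at its 3' end, so levels do not scale with gene length. Because classes were drawn from the same expression values, differences between classes are a description without a test. Slc5a1, the sodium-glucose cotransporter SGLT1 of the brush border, reached 438 ± 85.2 CPM in enterocytes (SD, n = 3) and 49.9 ± 3.8 in stem cells, its second highest class. Slc2a2, the basolateral glucose carrier GLUT2, was at 62.7 ± 0.468 in enterocytes and at 1.5 ± 1.54 in enteroendocrine cells, the next class. Slc26a6, a chloride-bicarbonate and oxalate exchanger, was at 94.3 ± 3.29 in enterocytes and at 7.7 ± 1.24 in progenitors. For each of these 3 carriers the enterocyte level lay far outside the spread of the next class.

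The other 11 carriers peaked elsewhere, 8 of them in enteroendocrine cells, the hormone-secreting cells of the epithelium. This ranking is by share of UMIs and not per cell. In the ENR libraries the median was 14295 to 18192.5 UMIs per enteroendocrine cell and 32330.5 to 39846.5 per enterocyte. Slc36a1, a proton-coupled amino acid carrier, was at 68.7 ± 16.3 in enteroendocrine cells of ENR-organoids and at 7.25 ± 2.1 in goblet cells, the next class. Slc15a1, the proton-coupled di- and tripeptide carrier PepT1, was at 15 ± 6.49 in enteroendocrine cells and at 9.86 ± 2.67 in enterocytes, a gap within the spread between libraries although enteroendocrine cells were higher in each of the 3. For Slc6a8 (creatine), Slc38a2 (neutral amino acids), Slc39a4 (zinc uptake), Slc28a2 (purine nucleosides) and the nearly undetected Slc19a3 (thiamine), the leading class differed between the ENR libraries. Slc1a1, a glutamate carrier, was highest in progenitors (25.9 ± 0.977), and Slc1a5, a glutamine exchanger, in Paneth cells (121 ± 17.2, with 109 ± 3.29 in goblet cells).

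**Figure D1:**
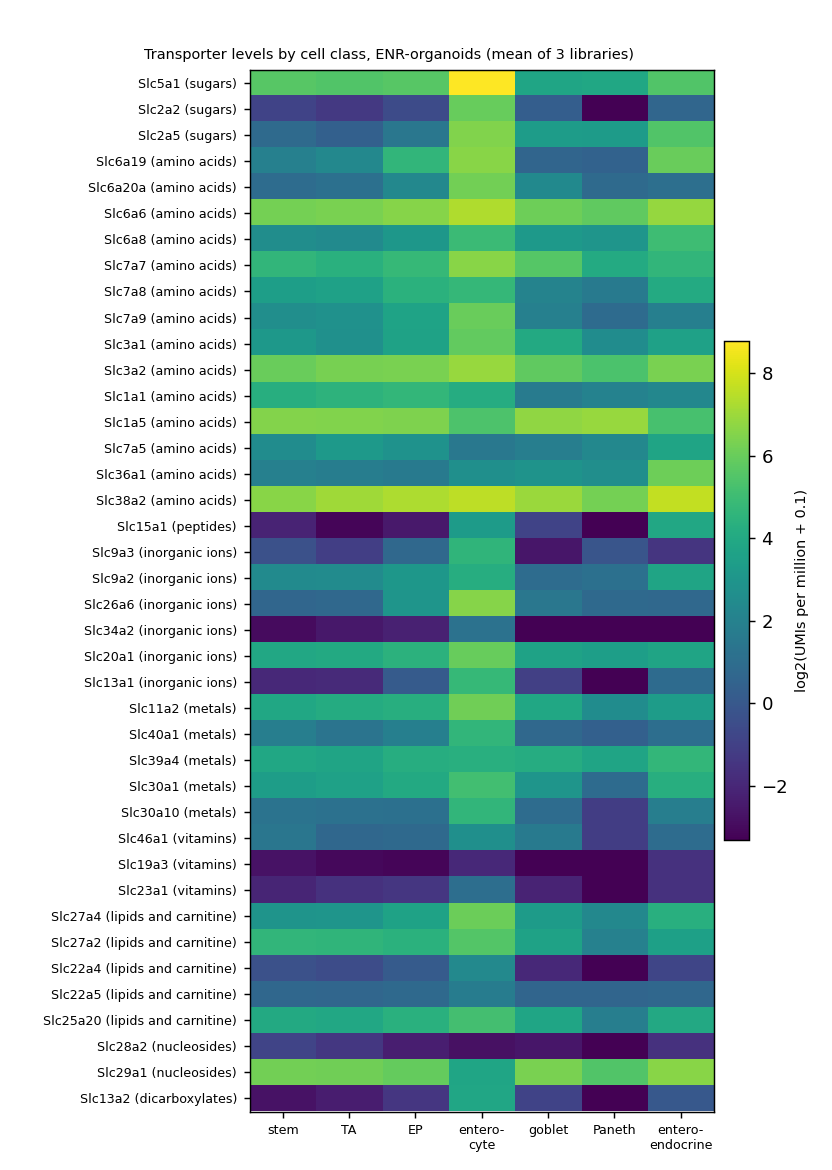
Mean level of the 40 carriers in 7 cell classes of ENR-organoids (n = 3 libraries), as log2 of CPM plus 0.1 on the color scale; rows are genes with their substrate group, columns are classes. The enterocyte column holds the highest value of the row for 29 of 40 genes, while Slc36a1 stands out in the enteroendocrine column.

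Hyper-organoids were first compared with ENR-organoids over all kept cells. Of the 39 carriers that passed the filter on low counts, 15 were called, meaning an adjusted p under 0.05 and at least a 2-fold change in edgeR's quasi-likelihood test, 12 lower and 3 higher in Hyper-organoids. Among all genes, 22.9% of 16037 genes were called, 18.2% higher and 4.75% lower. The median log2 fold change was -0.30 for the carriers and -0.01 for all genes. The carrier not tested was Slc19a3, at 0.0163 to 0.0722 CPM in the organoids. In such sums over all cells, fewer cells of a type and less RNA per cell cannot be told apart.

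Of the sugar carriers, 2 of 3 were lower. Slc2a2 was measured at 5.33, 7.17 and 6.84 CPM in ENR-organoids and at 0.614, 1.15 and 0.543 in Hyper-organoids. The groups did not overlap, as for 25 of the 40 carriers and 61% of all tested genes. Its log2 fold change was -3.18 ± 0.37 (SE; edgeR, adjusted p = 0.00018). Slc2a5, the fructose carrier GLUT5, was at 10.2, 12.6 and 10.4 and 2.78, 2.23 and 2.59, a log2 fold change of -2.25 ± 0.18. Slc5a1 was at 81.7, 93.9 and 73.9 in ENR-organoids and at 55.4, 56 and 50.8 in Hyper-organoids, without overlap but with less than a 2-fold change (-0.75 ± 0.10).

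Of the 14 carriers of amino acids and amines, 5 were lower. Slc6a19, the main brush border carrier of neutral amino acids (B0AT1, on chromosome 13 at 73679745 to 73704865, GRCm38, minus strand), was at 17.7, 24.6 and 18 CPM in ENR-organoids and at 0.188, 0.401 and 0.21 in Hyper-organoids. Its log2 fold change of -6.33 ± 0.42 (edgeR, adjusted p = 1.1e-05) was the furthest from 0 among the 39 carriers. Slc6a20a, which carries proline and other imino acids, was at 9.5, 11.4 and 9.05 against 0.505, 0.725 and 0.709, with a log2 fold change of -4.08 ± 0.19. Its paralog Slc6a20b was at 0.166 to 0.64 in the 8 organoid libraries, and reads shared by the copies could be split between them. Slc7a8, a light chain of a basolateral amino acid exchanger, was at 17.1, 18.5 and 11.4 against 7.21, 7.08 and 5.64 (-1.36 ± 0.18). Slc7a9, the light chain of the brush border cystine carrier, was at 12.1, 14.4 and 15.4 against 2.94, 8.16 and 6.82 (-1.36 ± 0.32), and Slc3a1, the heavy chain that pairs with it, missed the fold threshold at -0.99 ± 0.13. Slc1a1 was at 21.3, 22.1 and 21.8 against 14.6, 8.87 and 11.4 (-1.03 ± 0.15), a call that was lost without ENR replicate 3 (-0.996) or Hyper replicate 2 (-0.86).

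The peptide carrier Slc15a1 was at 1.41, 1.22 and 0.886 CPM in ENR-organoids and at 0.123, 0.274 and 0.332 in Hyper-organoids (log2 fold change -2.41 ± 0.41). Slc13a2, a dicarboxylate and citrate carrier, was at 1.31, 1.98 and 1.28 against 0.0722, 0.0422 and 0.0554 (-4.85 ± 0.37, edgeR, adjusted p = 2.1e-05). For both, every Hyper library lay below every ENR library.

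Among the 6 carriers of inorganic ions, 2 were lower and 2 higher. Slc13a1, a sodium-sulfate cotransporter, was at 2.69, 2.89 and 3.49 in ENR-organoids and at 0, 0.345 and 0.188 in Hyper-organoids, where the 0 UMIs of replicate 1 allow up to 0.0217 CPM. Its log2 fold change of -4.21 ± 0.89 moved to -3.58 without Hyper replicate 1 and to -5.33 without Hyper replicate 2. Slc26a6 was at 9.69, 13.5 and 14.3 against 2.77, 3.68 and 3.11 (-2.1 ± 0.28). Slc9a3, the sodium-proton exchanger NHE3 of the brush border (chromosome 13 at 74121457 to 74169442, plus strand), was higher in Hyper-organoids, at 5.0, 6.88 and 8.62 against 3.01, 3.16 and 2.77 (1.07 ± 0.21, edgeR, adjusted p = 0.0031). That call was lost without Hyper replicate 3 (0.87) and without the 5% of cells with most UMIs (0.98). Slc34a2, a sodium-phosphate cotransporter, was at 0.859, 1.11 and 1.12 in Hyper-organoids against 0.278, 0.423 and 0.168 (1.69 ± 0.39).

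Slc28a2, which takes up purine nucleosides together with sodium, had the largest rise of the 3. It was at 0.339, 0.269 and 0.0673 CPM in ENR-organoids and at 1.71, 4.7 and 2.07 in Hyper-organoids, with a log2 fold change of 3.51 ± 0.60 (edgeR, adjusted p = 0.0014). Slc29a1, an equilibrative nucleoside carrier, was at 56.7 to 65.1 in ENR- and 63.1 to 71.9 in Hyper-organoids. The 5 metal carriers and the 5 lipid and carnitine carriers gave no call; among them were Slc40a1, the iron exporter ferroportin (0.72 ± 0.39), and Slc27a4, a fatty acid transport protein (-0.98 ± 0.11). Slc46a1, the proton-coupled folate carrier, was at 2.04, 2.26 and 2.37 against 4.41, 4.84 and 4.63 (0.93 ± 0.12, short of 2-fold). Slc23a1, a vitamin C carrier, was called lower (-1.1 ± 0.37), but the adjusted p was 0.053 with the culture series as a block in edgeR and 0.052 with DESeq2, and the call was lost without ENR replicate 1, 2 or 3 or Hyper replicate 1 or 3.

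The remaining carriers did not pass both thresholds. Among amino acid carriers, Slc3a2, the heavy chain shared by several exchangers, was at 77.5 to 85.9 CPM in ENR- and 82 to 124 in Hyper-organoids. Of the light chains, Slc7a7 was at 29.7 to 33.2 and 29.4 to 33.9 and Slc7a5 at 6.07 to 8.46 and 8.0 to 11.8, while Slc7a8 was called lower, as given above. Slc6a6, the taurine carrier, was at 92.6 to 93.4 and 90 to 104, Slc1a5 at 80.4 to 88.5 and 86.7 to 98.3, and Slc38a2 at 132 to 160.1 and 117 to 154. Slc6a8 (0.72 ± 0.14) and Slc36a1 (0.41 ± 0.12) had an adjusted p under 0.05 with less than a 2-fold difference. Among ion and metal carriers, Slc9a2 (-0.30 ± 0.09), Slc20a1 (-0.29 ± 0.11), the iron importer Slc11a2 (-0.33 ± 0.12), the zinc exporter Slc30a1 (-0.56 ± 0.10), Slc30a10 (0.23 ± 0.21) and Slc39a4 (0.20 ± 0.18) all lay within 2-fold. So did the lipid and carnitine carriers Slc27a2 (-0.70 ± 0.22), Slc25a20 (0.38 ± 0.09), Slc22a5 (-0.34 ± 0.13) and Slc22a4 (-0.09 ± 0.21).

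**Figure D2:**
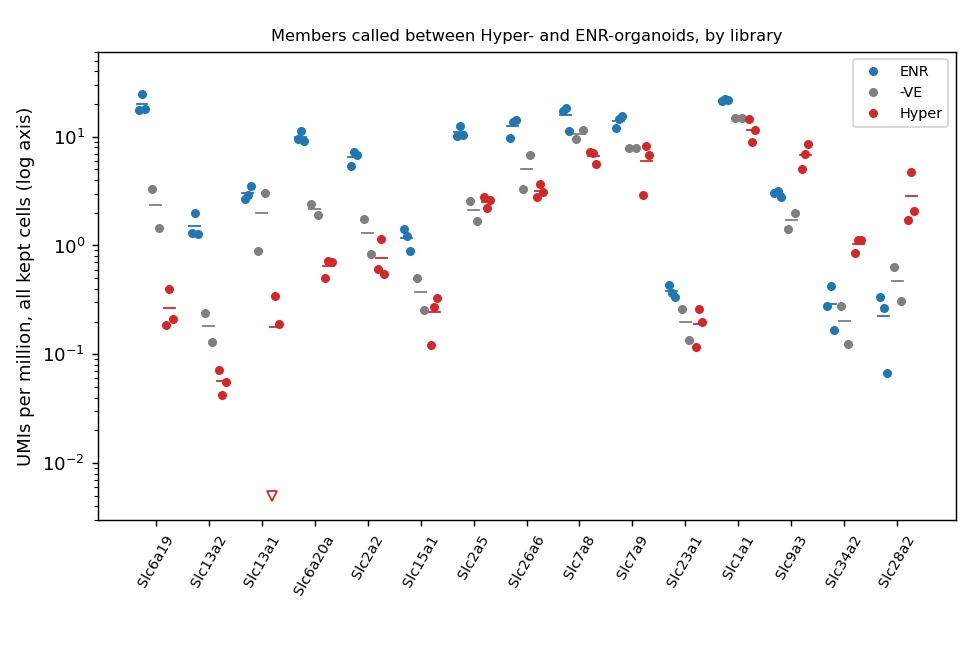
Level of the 15 called carriers in each organoid library, in CPM over all kept cells on a log axis; points are libraries (3 ENR, 2 -VE, 3 Hyper), short lines are group means, and the open triangle is a library with 0 UMIs. Slc6a19 lies at 17.7 to 24.6 in ENR-organoids and at 0.188 to 0.401 in Hyper-organoids, and the 3 called higher (Slc9a3, Slc34a2, Slc28a2) are higher in every Hyper library than in any ENR library.

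The windows before the RefSeq start of 4 of these genes are printed because these are 2 carriers that fell (Slc6a19, Slc15a1) and 2 that rose (Slc9a3, Slc28a2). Each run is the 250 bases before the start in GRCm38.p6, 5' to 3' on the gene's strand, with no base in an annotated exon; the window of Slc6a19 lies inside the longer GENCODE gene model. Capitals mark matches, on either strand, to core letters of motifs bound by intestinal factors: GTTAAT (HNF1), CAAAGT (HNF4) and TTTATNG (CDX).
Slc6a19 (chr13:73692637-73692886, minus strand): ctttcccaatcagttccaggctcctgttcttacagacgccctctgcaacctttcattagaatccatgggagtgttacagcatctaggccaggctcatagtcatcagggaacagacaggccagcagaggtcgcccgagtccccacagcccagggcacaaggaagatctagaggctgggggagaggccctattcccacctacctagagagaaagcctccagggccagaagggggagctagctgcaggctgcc
Slc15a1 (chr14:121505255-121505504, minus strand): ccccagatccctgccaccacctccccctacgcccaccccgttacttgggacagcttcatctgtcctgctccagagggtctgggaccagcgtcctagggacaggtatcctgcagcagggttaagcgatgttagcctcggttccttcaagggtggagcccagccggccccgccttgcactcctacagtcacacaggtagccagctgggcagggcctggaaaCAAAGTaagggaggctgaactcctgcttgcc
Slc9a3 (chr13:74121163-74121412, plus strand): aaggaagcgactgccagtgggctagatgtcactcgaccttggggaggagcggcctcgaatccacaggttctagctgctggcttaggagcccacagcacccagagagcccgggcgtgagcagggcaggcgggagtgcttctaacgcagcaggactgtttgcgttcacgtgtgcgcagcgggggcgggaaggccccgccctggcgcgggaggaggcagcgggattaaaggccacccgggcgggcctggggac
Slc28a2 (chr2:122426185-122426434, plus strand): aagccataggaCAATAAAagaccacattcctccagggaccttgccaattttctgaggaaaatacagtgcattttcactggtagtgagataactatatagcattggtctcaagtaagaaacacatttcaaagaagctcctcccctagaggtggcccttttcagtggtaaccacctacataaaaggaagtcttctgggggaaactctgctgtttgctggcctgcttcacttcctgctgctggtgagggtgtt
The window of Slc15a1 held the HNF4 letters, 31 bases before the start, and that of Slc28a2 the CDX letters, 239 bases before it, whereas the windows of Slc6a19 and Slc9a3 held none of the 3. Over the 30 carriers with an entry in the promoter table, 2 windows held the HNF1 letters (6.67%, against 6.52% of 27025 windows), 7 the HNF4 letters (23.3% against 12.5%) and 3 the CDX letters (10% against 10.2%). A match is a description of letters, not a site. Slc6a19 and Slc9a3 lie 416591 bases apart on chromosome 13 and moved in opposite directions.

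Library levels depend on which cells a library holds. A level was therefore computed for each library from the mean ENR level of each class and the class shares of UMIs in that library, and set beside the measured level as a description with no test. For Slc26a6 the computed mean in Hyper-organoids was 2.58 and the measured mean 3.19 CPM, against 12.5 measured in ENR-organoids. These means lay close although levels within classes moved in opposite directions. The log2 fold change of Slc26a6 was -1.11 in enterocytes and 0.91 in stem cells. Slc2a2 had a computed mean of 1.06 and a measured mean of 0.77. For Slc6a19 the computed mean was 6.35 and the measured mean 0.266, and for Slc6a20a 2.92 and 0.646, so both were measured well below the computed level. The reverse held for the 3 carriers called higher: Slc9a3 had a computed mean of 0.722 and a measured mean of 6.83, Slc34a2 0.074 and 1.03, and Slc28a2 0.337 and 2.83.

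**Figure D3:**
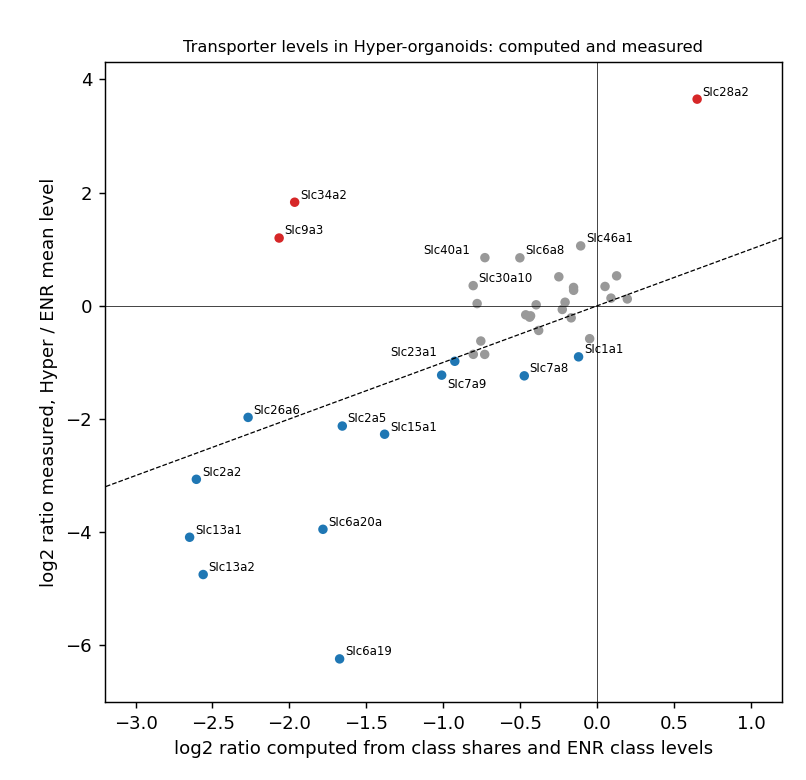
Log2 ratio of the Hyper to the ENR mean level for 39 carriers (Slc19a3 left out): computed from class shares and ENR class levels (x axis) against measured (y axis), with the line of equality dashed; blue genes were called lower, red genes higher and gray genes were not called over all cells. Slc26a6 (-2.27 computed, -1.97 measured) lies near the line, Slc6a19 (-1.67, -6.24) below it and Slc9a3 (-2.07, 1.2) above it.

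Within the stem cell class, 8 of 35 tested carriers were called between Hyper and ENR cultures, 6 higher and 2 lower; 18% of 13920 genes were called, 15.2% higher and 2.8% lower. The study named its stem cells from separate clusters in Hyper- and ENR-organoids, and its TA cells also lay apart, so values within these 2 classes compare cells of different clusters; cluster numbers of organoid cells were not used here. The 5 carriers not tested there were Slc13a1, Slc13a2, Slc15a1, Slc19a3 and Slc23a1. Slc9a3 was at 0.775, 0.649 and 0.655 CPM in ENR stem cells and at 6.55, 7.07 and 9.9 in Hyper stem cells, a log2 fold change of 3.38 ± 0.30 (edgeR, adjusted p = 2.8e-05). For comparison, ENR enterocytes held 23.8 ± 4.51 of this exchanger. Slc34a2 was counted with 0, 1 and 0 UMIs in ENR stem cells and with 76, 52 and 69 in Hyper stem cells. The pooled ratio was 46.9, with a counting interval of 8.33 to 1863. Its fitted log2 fold change was 5.32 ± 0.74, and 4.69 without ENR replicate 1. That fold rests on the 1 ENR count, which is in replicate 2. Without replicate 2 the ENR libraries are at 0 and no fold is given. Slc28a2 was at 0.62, 0.73 and 0 against 1.87, 5.68 and 2.34 (2.61 ± 0.64, and 1.99 without Hyper replicate 2).

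The other 3 carriers that rose in stem cells were Slc6a8, Slc40a1 and Slc30a10. Slc6a8 was at 6.2, 5.76 and 5.89 in ENR and 13.4, 18.1 and 16.8 in Hyper stem cells (1.33 ± 0.17). Slc40a1 was at 3.56, 2.59 and 4.45 against 7.09, 13 and 11.8 (1.51 ± 0.30). Slc30a10, a manganese exporter, was at 2.32, 2.51 and 2.23 against 5.38, 8.3 and 7.97 (1.5 ± 0.25). Each of the 3 was higher in every Hyper library than in any ENR library; the 2 groups did not overlap for 24 of the 35 carriers tested in stem cells and for 55.7% of genes. Of 9 other genes of iron and metal handling, 3 rose in Hyper stem cells: Cybrd1, a duodenal ferric reductase (1.55 ± 0.35), Hmox1, heme oxygenase (1.13 ± 0.38), and Slc39a14, a metal importer (1.01 ± 0.11). The transferrin receptor gene Tfrc fell (-1.12 ± 0.14).

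Slc6a19 and Slc6a20a fell in stem cells. Slc6a19 had 42, 57 and 26 UMIs in ENR stem cells (3.25, 4.62 and 3.4 CPM) and 0, 2 and 0 in Hyper stem cells, which held 36280902 to 51917593 UMIs per library. The pooled ENR level was 262 times the Hyper level (counting interval 71.1 to 2190), and the fitted log2 fold change of -7.77 ± 0.60 rests on the 2 UMIs of Hyper replicate 2; without it the Hyper libraries are at 0 and no fold is given. In goblet cells of ENR-organoids Slc6a19 was at 3.13, 0.98 and 0.291, and the part of free RNA in these low levels was not tested. Slc6a20a was at 2.56, 1.95 and 1.05 against 0.502, 0.539 and 0.882 (-1.68 ± 0.38).

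Transit amplifying cells gave 10 calls of 37 carriers tested, 6 higher and 4 lower, where 20.9% of 14553 genes were called, 17.2% higher and 3.78% lower. Slc40a1, Slc28a2, Slc6a8, Slc34a2, Slc46a1 and Slc9a3 were higher and Slc13a1, Slc6a20a, Slc6a19 and Slc1a1 lower. Slc9a3 had a log2 fold change of 4.04 ± 0.36, and Slc6a19 was counted with 701 UMIs in ENR and 3 in Hyper cells, a ratio of 348 (counting interval 119 to 1692). The call of Slc1a1 was lost without Hyper replicate 2, and that of Slc13a1 without ENR replicate 1 or 2 or any Hyper library. Goblet cells gave 2 calls of 28, where 13.3% of 11714 genes were called, 10.7% higher and 2.64% lower: Slc9a2, another sodium-proton exchanger, was higher (1.26 ± 0.39) and Slc6a20a lower (-2.54 ± 0.45). The Slc9a2 call was lost without ENR replicate 1 or 2 or Hyper replicate 1 or 2.

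Enteroendocrine cells held Slc6a19 outside the enterocyte lineage. Its level in this class was 69.1, 52 and 70.9 CPM in the ENR libraries. The -VE libraries held 60.2 and 21.3 and the Hyper libraries 4.14, 6.96 and 10, so every Hyper library lay below every ENR and -VE library, while the -VE and ENR libraries overlapped. In this class 34.1% of genes did not overlap between Hyper and ENR and 35.8% between Hyper and -VE. Of 25 carriers tested in this class it was the one called between Hyper and ENR (-3.14 ± 0.40, edgeR, adjusted p = 0.00051), where 7.4% of 11050 genes were called, 5.96% higher and 1.44% lower. It was also the one called between Hyper and -VE (-2.57 ± 0.43, edgeR, adjusted p = 0.006), where 4.01% of 11050 genes were called, 3.52% higher and 0.489% lower. Both calls passed the threshold with any 1 library left out, an alternative added after seeing the data, and the second log2 fold change was -1.68 without -VE replicate 1 and -3.16 without -VE replicate 2. Where leaving out a library leaves 1 in its group, here and in the other fits of this kind, the spread comes from the other groups and the remaining library is assumed to vary like them. Slc36a1 was at 55.5 to 87 in ENR- and 40.7 to 55 in Hyper-organoids and did not pass the test (-0.45 ± 0.19).

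Within the enterocyte class, 12 of 38 tested carriers were called between Hyper and ENR cultures, 7 lower and 5 higher, where 10.9% of 11154 genes were called, 7.78% higher and 3.08% lower. This comparison rests on 58 and 21 enterocytes of Hyper replicates 2 and 3, since replicate 1 held too few. The class markers were uneven between those 2 libraries. Fabp1 was at 20300 and 15211 CPM against 10839, 11214 and 10370 in ENR enterocytes. Reg1 was at 3625 and 43.1 against 1875, 1626 and 2062, Apoa1 at 1581 and 114 against 2036, 1971 and 1072 and Rbp2 at 2948 and 1477 against 3952, 4381 and 3945, so replicate 3 lay below every ENR library for these 3, and its part in the results was not tested beyond leaving it out. Slc2a5 was at 96.9, 93.5 and 77.7 in ENR enterocytes and at 11.9 and 12.3 in Hyper enterocytes (-2.93 ± 0.26, edgeR, adjusted p = 0.0001). Slc6a20a was at 81.5, 79.7 and 62.5 against 10.7 and 4.11 (-3.15 ± 0.40). Slc6a19 was at 101, 110.5 and 82.3 against 15.6 and 0, where 0 UMIs allow up to 3.08 (-3.25 ± 0.50). Slc13a2 was at 14.4, 16.8 and 11.2 against 1.64 and 1.03 (-3.31 ± 0.46). For these 4 the Hyper and ENR libraries did not overlap, as for 25 of the 38 carriers tested and 52.6% of genes in enterocytes.

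The other 3 lower carriers were Slc7a8 (28.9, 32.5 and 19.4 against 9.43 and 1.03), Slc26a6 (91.1, 94.1 and 97.7 against 51.2 and 34.9) and Slc1a1 (16.2, 16.7 and 20 against 7.79 and 9.24). Among the 5 that rose, Slc46a1 was at 7.65, 6.37 and 5.47 against 35.7 and 21.6 (2.19 ± 0.25). Slc25a20, the mitochondrial carnitine-acylcarnitine carrier, was at 34.4, 37.2 and 35.3 against 97.2 and 62.6 (1.17 ± 0.16), and Slc40a1 at 24.7, 16 and 34 against 107 and 82.2 (1.92 ± 0.52). Slc30a10 was at 25.3, 25 and 24.3 against 63.1 and 54.4, and Slc34a2 at 2.64, 3.15 and 0.984 against 18 and 6.16. Slc5a1, at 478, 496 and 340.3 against 347 and 120.2, did not pass the test (-0.91 ± 0.34). Without Hyper replicate 2, which leaves 21 Hyper cells, the calls of Slc1a1, Slc25a20, Slc30a10, Slc34a2 and Slc40a1 were lost, the log2 fold change of Slc34a2 was 1.37, and that of Slc6a20a moved to -4.22. The Hyper library that remains holds 0 UMIs of Slc6a19 and 1 each of Slc7a8 and Slc13a2, so no fold is given for these. Without Hyper replicate 3 the calls of Slc26a6 and Slc40a1 were lost, and without ENR replicate 1 or 2 that of Slc40a1.

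**Figure D4:**
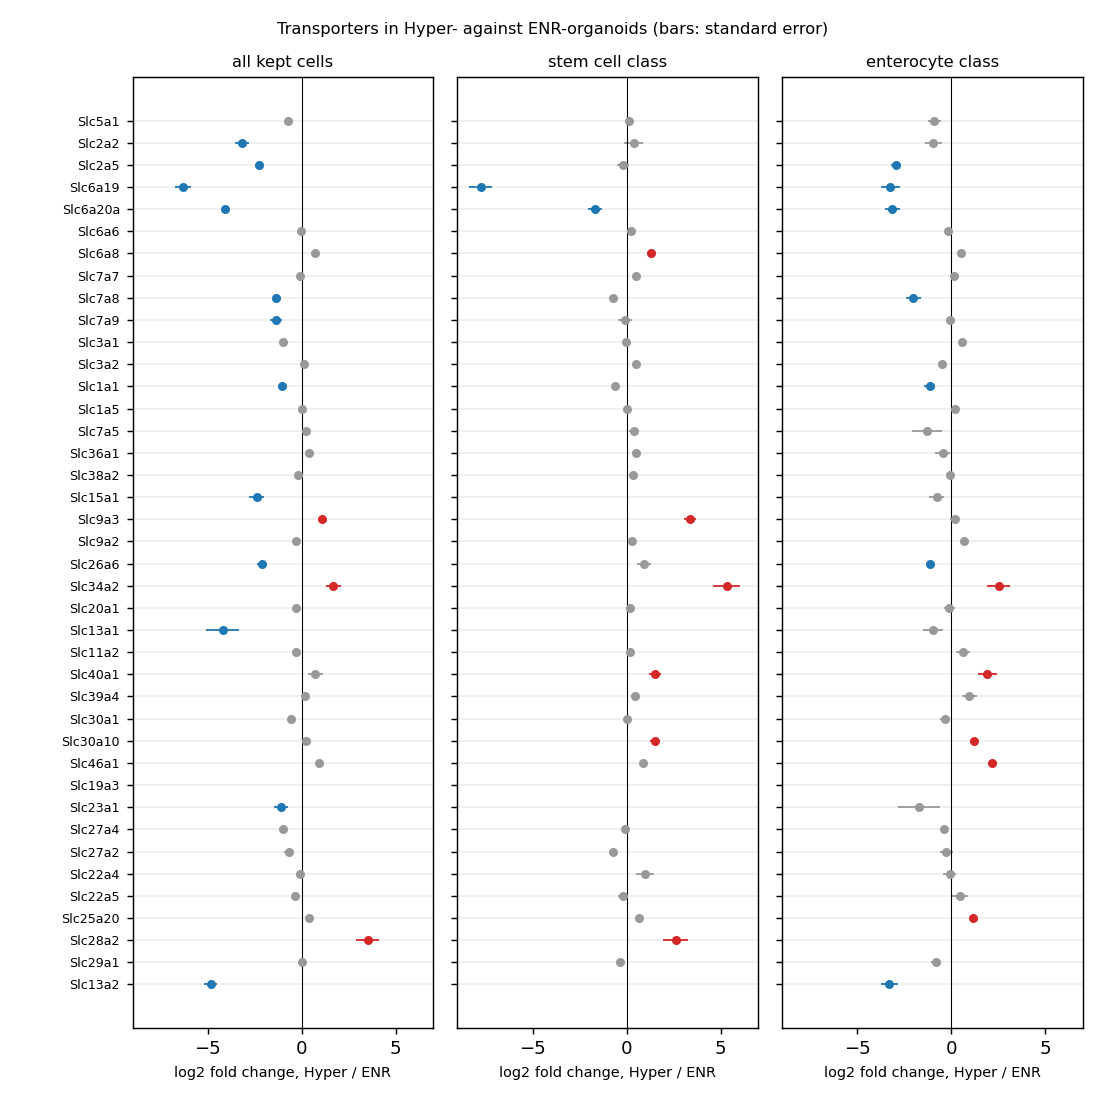
Log2 fold change of Hyper- against ENR-organoids for the 40 carriers over all kept cells, within stem cells and within enterocytes; points are edgeR estimates, bars are standard errors, red is called higher, blue called lower, gray not called, and a missing point was not tested. Slc6a19 is called lower and Slc34a2 higher in all 3 panels, and Slc9a3 is called higher over all cells and in stem cells but not in enterocytes (0.17 ± 0.26).

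The change with the medium was compared between the enterocyte and stem cell classes in 1 model over ENR replicates 1 to 3 and Hyper replicates 2 and 3. The effect differed between the classes for 12 of 39 carriers tested and for 10.9% of 12685 genes. With 1 library left out, the 12 became 6 without ENR replicate 2 and 17 without Hyper replicate 2, the ends of the range. The change in enterocytes minus that in stem cells was -3.46 ± 0.41 for Slc9a3 (edgeR, adjusted p = 6e-05), -2.94 ± 0.30 for Slc2a5, -2.28 ± 0.23 for Slc26a6 and -1.13 ± 0.17 for Slc6a8. The median over all genes was -0.17.

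Comparing -VE- with ENR-organoids leaves VPA and EPZ6438 out of the change of medium. Over all cells, 6 of 39 carriers were lower in -VE- than in ENR-organoids and 0 higher, where 2.55% of 16037 genes were called, 1.35% higher and 1.2% lower. Slc6a19 was at 3.3 and 1.44 CPM in -VE-organoids, below every ENR library (-3.09 ± 0.40, edgeR, adjusted p = 0.0061). The other 5 were Slc13a2, at 0.238 and 0.129 (-3.06 ± 0.37), Slc2a5, at 2.56 and 1.69 (-2.37 ± 0.21), Slc2a2, at 1.76 and 0.835 (-2.31 ± 0.42), Slc6a20a, at 2.38 and 1.91 (-2.21 ± 0.20), and Slc26a6, at 3.28 and 6.73 (-1.31 ± 0.31). The Slc2a2 call was lost without ENR replicate 2 or 3 or -VE replicate 2, and the Slc26a6 call without any ENR library, Hyper replicate 2 or 3, or -VE replicate 1. Without -VE replicate 1, the log2 fold changes of Slc6a19 and Slc2a2 were -3.81 and -2.95, and without -VE replicate 2 that of Slc26a6 was -1.93. Groups did not overlap for 26 of the 40 carriers, against 44% of genes.

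In -VE enterocytes, 149 and 244 cells, 7 of 38 carriers were lower than in ENR enterocytes and 0 higher, where 3.34% of 11154 genes were called, 1.44% higher and 1.9% lower. Slc2a5 was at 17.5 and 10.4 (-2.76 ± 0.20, edgeR, adjusted p = 0.00036). Slc13a2 was at 2.99 and 1.89 (-2.62 ± 0.27), Slc6a19 at 27.2 and 13.6 (-2.34 ± 0.36) and Slc6a20a at 28.6 and 13.9 (-1.88 ± 0.27). Slc5a1 was at 216 and 163 (-1.26 ± 0.34), Slc2a2 at 27.7 and 13.4 (-1.69 ± 0.40) and Slc15a1 at 5.19 and 3.03 (-1.33 ± 0.29). Those last 3 calls were lost without ENR replicate 1, ENR replicate 2 or -VE replicate 2, those of Slc5a1 and Slc2a2 also without ENR replicate 3, and that of Slc5a1 without -VE replicate 1. Without -VE replicate 1 the log2 fold changes of Slc2a2, Slc6a19 and Slc6a20a were -2.34, -2.96 and -2.53. A fit with the culture series as a block added Slc27a4 (-1.07) and Slc23a1 (-2.27) as lower. Of the class markers in -VE enterocytes, Fabp1 was at 7072 and 6175 CPM, Reg1 at 523 and 510 and Rbp2 at 2230 and 1773. All of these lay below every ENR library. Apoa1, at 1160 and 665, overlapped the ENR libraries. The part of these marker levels in the calls was not tested.

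In the other classes, few carriers were called between -VE- and ENR-organoids. By edgeR, 10 of 35 carriers in stem cells and 11 of 37 in transit amplifying cells had an unadjusted p under 0.05. So did 10 of 34 in enterocyte progenitors and 7 of 28 in goblet cells. The share of all genes at that p was not computed. In stem cells Slc6a19 was the 1 call, at 0.581 and 0.40 against 3.25 to 4.62 (-2.94 ± 0.47), where 0.503% of 13920 genes were called, 0.23% higher and 0.273% lower, and it was lost without any ENR or -VE library. Transit amplifying cells gave the same 1 call (-2.82 ± 0.42), lost without ENR replicate 1 or 2 or -VE replicate 2, where 1.03% of 14553 genes were called, 0.694% higher and 0.337% lower. Enterocyte progenitors, too few in Hyper-organoids to test, gave 1 call of 34, again Slc6a19 (-2.0 ± 0.28), lost without -VE replicate 2 (-1.59), where 0.453% of 12138 genes were called, 0.206% higher and 0.247% lower. A culture series block added Slc13a1 as higher in progenitors (1.82), Slc30a10 as higher in stem cells (1.09) and Slc2a5 as lower in transit amplifying cells (-1.18). Goblet cells gave 1 call of 28, Slc2a5 (-1.06 ± 0.24), lost without any ENR library, Hyper replicate 2 or 3, or -VE replicate 2, where 1.14% of 11714 genes were called, 0.529% higher and 0.606% lower. In enteroendocrine cells 0 of 25 were called by edgeR, with 2 at an unadjusted p under 0.05, where 0.19% of 11050 genes were called, 0.118% higher and 0.0724% lower. In Paneth cells 0 of 9 were called by edgeR, with 3 at an unadjusted p under 0.05, where 1.07% of 5995 genes were called, 0.367% higher and 0.701% lower.

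Hyper- against -VE-organoids differ in medium by VPA and EPZ6438, and 7 of 39 carriers were called over all cells, 3 higher and 4 lower, where 18.6% of 16037 genes were called, 16.1% higher and 2.51% lower. Higher were Slc28a2 (at 0.632 and 0.306 in -VE-organoids, 2.47 ± 0.65), Slc34a2 (at 0.279 and 0.124, 2.24 ± 0.46) and Slc9a3 (at 1.4 and 2.0, 1.87 ± 0.25, edgeR, adjusted p = 0.00075). Lower were Slc13a1 (at 0.887 and 3.06, -3.61 ± 0.92), Slc6a19 (-3.25 ± 0.42, edgeR, adjusted p = 0.00061), Slc6a20a (-1.87 ± 0.19) and Slc13a2 (-1.8 ± 0.41). Without -VE replicate 2 the calls of Slc13a1 (-2.43) and Slc28a2 (2.04) were lost. Without -VE replicate 1 the call of Slc13a2 was lost (-1.3), while Slc6a19 moved to -2.52, Slc34a2 to 2.93, Slc28a2 to 3.09 and Slc13a1 to -4.22. The log2 fold change of Slc13a1 was -2.98 without Hyper replicate 1 and -4.72 without Hyper replicate 2. The sugar carriers Slc2a2 (-0.87 ± 0.39) and Slc2a5 (0.12 ± 0.20) did not pass the test here. Groups did not overlap for 18 of the 40 carriers, against 64.5% of genes. The 3 comparisons share libraries, so their values stand side by side and are not independent of each other.

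In stem cells, Hyper against -VE gave 6 calls of 35, where 16.5% of 13920 genes were called, 14.7% higher and 1.76% lower. Slc9a3 was at 6.55 to 9.9 against 0.936 and 1.52 (2.55 ± 0.27, edgeR, adjusted p = 0.00012). Slc34a2 was also called higher, counted with 76, 52 and 69 UMIs in Hyper and only 2 and 3 in -VE stem cells, a pooled ratio of 19.6 with a counting interval of 8.24 to 60.9. Slc28a2, at 0.613 and 0.506 in -VE stem cells, also rose (2.45 ± 0.62, and 1.83 without Hyper replicate 2). Slc2a5 was at 1.59, 1.43 and 1.74 against 0.871 and 0.453 (1.16 ± 0.35), and Slc40a1 at 7.09 to 13 against 3.61 and 5.62 (1.09 ± 0.30). Slc6a19 was lower, with 2 UMIs in all Hyper stem cells and 33 in -VE stem cells, a ratio of 33.2 with a counting interval of 8.5 to 286. The Slc40a1 call was lost with the culture series as a block (0.96) and without Hyper replicate 2 or -VE replicate 1, that of Slc2a5 without Hyper replicate 3 or -VE replicate 2, and that of Slc28a2 without either -VE library. Transit amplifying cells gave 8 calls of 37, where 17.8% of 14553 genes were called, 15.5% higher and 2.32% lower: Slc28a2 (2.29 ± 0.62), Slc6a8, Slc2a5, Slc34a2 and Slc9a3 (2.75 ± 0.36) were higher, and Slc13a1, Slc6a20a and Slc6a19 lower. Those of Slc13a1, Slc28a2, Slc2a5 and Slc6a20a were lost without -VE replicate 2, that of Slc2a5 also without Hyper replicate 1, and that of Slc6a8 without Hyper replicate 2 or -VE replicate 1. Slc6a19 there had 3 UMIs in Hyper and 112 in -VE cells, a ratio of 44 (counting interval 14.7 to 217). The log2 fold change of Slc28a2 was 3.1 without -VE replicate 1 and 1.71 without -VE replicate 2. Goblet cells gave 1 call of 28, Slc46a1 (1.18 ± 0.32), lost without Hyper replicate 1 or 3 or either -VE library, where 9.87% of 11714 genes were called, 8.72% higher and 1.15% lower.

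In enterocytes, Hyper against -VE gave 3 higher and 0 lower of 38, where 6.87% of 11154 genes were called, 5.12% higher and 1.75% lower. With the culture series as a replicate block there were 5 calls, Slc3a1 being added as higher (1.01) and Slc7a8 as lower (-1.41). The 3 called without the block were Slc34a2 (at 3.46 and 0.758 in -VE enterocytes, 2.77 ± 0.70), Slc46a1 (at 9.91 and 14.5, 1.32 ± 0.26) and Slc25a20 (at 32.4 and 38.9, 1.23 ± 0.18). All 3 calls were lost without Hyper replicate 2, and that of Slc34a2 also without ENR replicate 1 or -VE replicate 2. The log2 fold change of Slc34a2 was 1.62 without Hyper replicate 2, 4.2 without -VE replicate 1 and 1.99 without -VE replicate 2.

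Genes that work with the carriers were read from lists, over all cells and between Hyper- and ENR-organoids, where 18.2% of all genes were called higher and 4.75% lower. Tmem27, a partner of Slc6a19 in kidney, was at 0.114 to 0.195 CPM in ENR- and 0.429 to 1.34 in Hyper-organoids (2.63 ± 0.48). Slc9a3r2, a scaffold protein of Slc9a3, was at 1.31 to 1.48 and 5.61 to 7.56 (2.13 ± 0.13, edgeR, adjusted p = 9e-06). The scaffold Pdzk1 was lower (-3.37 ± 0.74, at no more than 0.317). Of 9 genes of metal handling, 1 was higher, Hmox1 (1.22 ± 0.40). Of 12 listed intestinal transcription factors, 3 were lower, among them Hnf4g (-1.32 ± 0.19) and Creb3l3 (-2.1 ± 0.35). The 1 called higher was Prdm1 (1.31 ± 0.20). Within stem cells 3 of these 12 were higher and 0 lower (15.2% and 2.8% of genes). Within enterocytes 1 was higher and 0 lower (7.78% and 3.08% of genes). Over all cells, the 3 sodium pump genes and the 11 genes of the amino acid response had median log2 fold changes of 0.11 and -0.16. Of 10 carriers typical of colonocytes, 8 were tested and 4 were lower, including Slc51a, a subunit of the basolateral bile acid carrier (-3.97 ± 0.59).

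In the colon there was 1 library for each condition, so no test was made, and intervals are exact 95% Poisson intervals of the count, which cover counting error only. In all, 33 of the 40 carriers reached 1 CPM in at least 1 library. A change was called large when it passed 2-fold (after adding 1 CPM to each level) with intervals that did not overlap; 5 carriers did, 3 higher and 2 lower in the DSS library, and of 12440 genes 5.08%, 3.55% higher and 1.53% lower. Slc40a1 was at 44.4 (41.5 to 47.4) in the normal and 129.9 (126 to 134) in the DSS library. Slc46a1 was at 3.52 (2.74 to 4.44) and 8.27 (7.31 to 9.32), and Slc6a20a at 1.36 (0.894 to 1.97) and 4.2 (3.52 to 4.97). Slc9a3 was at 61.6 (58.2 to 65.2) and 23.5 (21.8 to 25.2), and Slc34a2 at 14.6 (13 to 16.4) and 5.43 (4.66 to 6.3).

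Cell makeup differed between the colon libraries. The 5 leukocyte markers summed to 113 CPM in the normal and 1070 in the DSS library, of which S100a8, a neutrophil gene, gave 0 and 852. Clusters rich in the leukocyte gene Ptprc, and other cells with a Ptprc UMI, held 20.4% and 24.6% of cells. With those cells left out, the 5 large changes remained, with Slc40a1 at 46.3 and 138 and Slc9a3 at 64.8 and 25, and Slc27a2, a fatty acid transport protein, was added (3.46 and 8.09); of all genes 4.03%, 2.28% higher and 1.75% lower passed. Clusters 3, 12 and 14 held 1 cell each of the DSS library, and clusters 4, 7, 9 and 10 held 2 to 11 cells of the normal one. Slc34a2 was at 328 (285 to 377) in cluster 12, which had 93 normal cells with a median of 5847 UMIs and 1 DSS cell, and at no more than 9.62 in any other normal cluster of at least 20 cells. Slc15a1 was at 159 (129 to 193) in the same cluster, and at 150.4 (135 to 168) in cluster 7 of the DSS library.

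Among clusters not rich in Ptprc, 5 held at least 20 cells of both libraries (1, 2, 5, 6 and 13), and in 4 of them Slc40a1 was higher in the DSS cells by the same size rule. In cluster 2, which the authors labelled stem, it was at 4.47 (2.23 to 8.0) and 46.4 (39.5 to 54.2), from 11 and 159 UMIs; of all genes 6.1%, 2.46% higher and 3.64% lower passed. The values were 47.8 and 188 in cluster 1 (background 3.85%, 1.62% higher and 2.23% lower), 101 and 339 in cluster 6 (background 3.67%, 1.73% higher and 1.95% lower), and 2.36 (0.644 to 6.05) and 20.3 (15.8 to 25.6) in cluster 5 (background 3.69%, 2.36% higher and 1.33% lower). Slc20a1, a sodium-phosphate cotransporter found in most cells, was lower in the DSS cells of clusters 1 (182 and 87.7), 6 (145 and 62.4) and 13 (128 and 32.8). Slc13a2 was higher in clusters 2 (6.1 and 25.1) and 6 (214 and 431), while over all cells it was at 149 and 147. Slc9a3 was lower in cluster 13 (11.6 and 1.53, background 4.2%, 2.28% higher and 1.92% lower) and did not pass the rule in clusters 1, 2, 5 and 6. Its highest normal levels were in clusters 12 (402) and 3 (133), which held 1 DSS cell each. Its highest DSS level was in cluster 17 (244), which held 0 normal cells, and Slc34a2 was at 63.7 there. The part of these clusters in the change over all cells was not tested. Slc1a1 was lower in clusters 2, 6 and 13. Of the carriers at 1 CPM or more, cluster 1 had 1 higher and 1 lower of 34 by the size rule. Cluster 2 had 2 higher and 2 lower of 31, and cluster 5 had 3 and 0 of 31. Cluster 6 had 4 and 3 of 34, and cluster 13 had 2 and 3 of 31. Not all of these carriers are named here.

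Between the colon and the organoids, tissue and culture cannot be told apart. In the normal and DSS colon, Slc6a19 was at 0.653 and 0.278 CPM, Slc2a2 at 0.0502 and 0.0309 and Slc26a6 at 0.904 and 0.679. Slc13a2, Slc9a3 and Slc34a2 were above every organoid library in both. This was not particular to them, since it also held for Slc6a8, Slc20a1, Slc9a2, Slc25a20, Slc15a1 and Slc40a1, among others. Slc38a2 (267 and 241), Slc6a8 (138 and 130), Slc25a20 (128 and 145) and Slc5a1 (82.3 and 61.5) were well covered and did not pass the size rule. Nor did Slc9a2 (92 and 60.7), Slc39a4 (84.1 and 82.7), Slc1a5 (75.2 and 72.5), Slc3a2 (66.8 and 62.7), Slc6a6 (65.6 and 74) and Slc30a1 (44.1 and 31.3). The other carriers at 10 CPM or more in a colon library were Slc27a4 (43.3 and 33.3), Slc7a7 (28.6 and 41.9), Slc3a1 (22.9 and 28.2), Slc11a2 (16.2 and 19.9), Slc36a1 (12.3 and 23.6), Slc29a1 (13.1 and 9.51) and Slc13a1 (9.19 and 10.5), and over all cells Slc20a1 was at 180 and 105, Slc1a1 at 34.4 and 16.9 and Slc15a1 at 10.8 and 14.1.

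**Figure D5:**
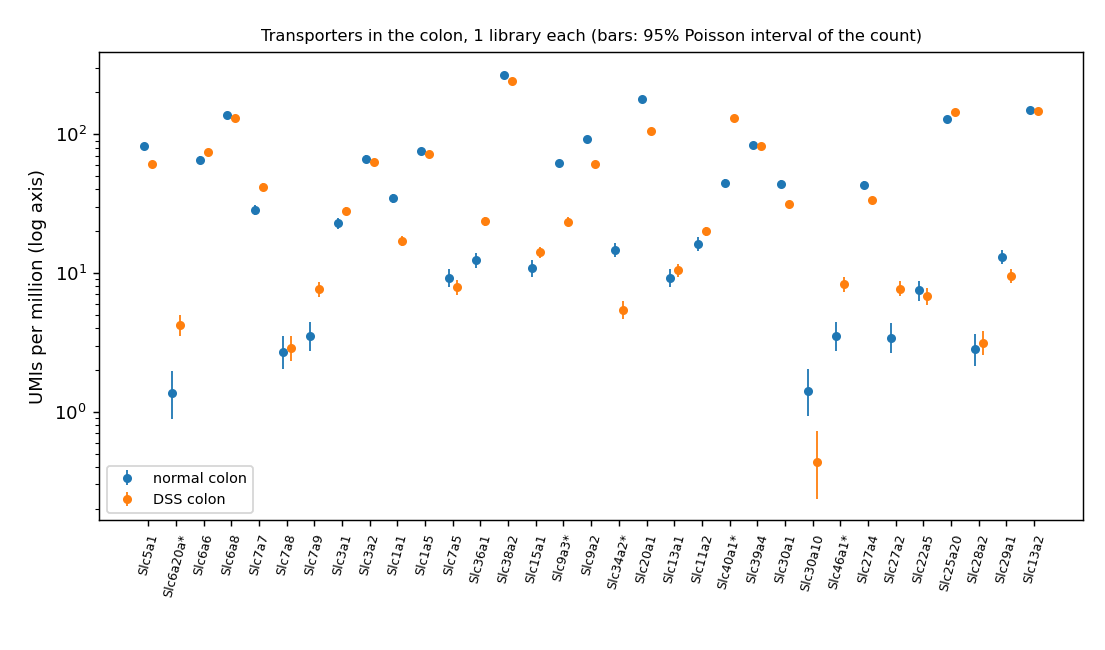
Level of the 33 carriers at 1 CPM or more in normal (blue) and DSS (orange) colonic crypts on a log axis; points are single libraries, bars are exact 95% Poisson intervals of the count, and a star marks the 5 genes past 2-fold with intervals that do not overlap. Slc40a1 stands at 44.4 and 129.9, and Slc9a3 at 61.6 and 23.5.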

How the data were processed

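Single cells of 8 organoid and 2 colon libraries were profiled with the 10x 3' kit, version 3. The authors aligned reads to mm10 with Cell Ranger (3.0.0 per the labels, 3.1.0 per the file headers), filtered and annotated cells with Seurat 3.1.4 and deposited UMI counts per gene and cell. The study's methods ask for 1500 genes per cell, yet 1375 kept cells hold fewer; the kept minimum per library was 501 to 611 genes, with at most 20% mitochondrial UMIs. The methods do not mention doublets, and no caller was run here; an alternative left out the 5% of cells with most UMIs.

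UMI counts were summed per library, over all kept cells and within each annotated class with at least 10 cells in the library, and tested with edgeR 4.0.16 (R 4.3.3, limma 3.58.1; TMM scaling, filterByExpr, quasi-likelihood F-test, Benjamini-Hochberg adjustment over all genes tested). A gene was called at an adjusted p under 0.05 and at least 2-fold; standard errors are the log2 fold change divided by the square root of F. The scripts were tested on simulated data. Colon intervals are exact Poisson intervals (Python 3.11.15, scipy 1.17.1). Alternatives were RLE scaling, no filter on low counts, DESeq2 1.42.0, a culture series block, 1500 genes per cell and each library left out, the last added after seeing the data for enteroendocrine, progenitor and Paneth cells. Deviations of same-series ENR and Hyper libraries from their group means had correlations over genes of 0.192, 0.17 and 0.436 for replicates 1, 2 and 3. Between different series the correlations were -0.292 to 0.129, so pairing by series was clear for replicate 3 only. The main fits took group alone, with the series block as an alternative. Standard errors and p-values rest on the spread between the libraries. The 89124015 to 170019527 UMIs per organoid library set the counting error, and counting intervals cover that error only. For the computed levels, RSC cells were given the ENR stem cell level. Values in every library were given for the called carrier of largest log2 fold change (Hyper against ENR, each direction) in each substrate group, for carriers called in the stem cell or enterocyte class, and in the colon for carriers past the size rule or at 10 CPM; other carriers named, and the paralogs, were chosen after their values were seen. The carriers and all lists were chosen with earlier results of these data known. A result for 1 listed gene is not reported here.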

Additional observations from a re-analysis of the deposited data

Results flagged for a closer look

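The change from ENR to Hyper cultures differed between enterocytes and stem cells for 12 of 39 carriers tested (edgeR, 1 model over 5 libraries, adjusted p under 0.05), against 10.9% of 12685 genes and a median difference over all genes of -0.17. With 1 library left out, the count ranged from 6 without ENR replicate 2 to 17 without Hyper replicate 2. Values are the log2 fold change in enterocytes minus that in stem cells. The difference was -3.46 for Slc9a3, -2.94 for Slc2a5, -2.28 for Slc26a6, -1.73 for Slc6a20a, -1.5 for Slc7a8, -1.26 for Slc5a1, -1.13 for Slc6a8, -1.05 for Slc3a2, -0.68 for Slc6a6, -0.57 for Slc38a2 and -0.56 for Slc7a7. For Slc6a19 it was 3.38, and Hyper replicate 2 gave all of its Hyper UMIs in this model, 2 in stem cells and 38 in enterocytes. Hyper replicate 3 holds 0 Slc6a19 UMIs in both classes, so the fit without replicate 2 gives no value for this carrier. With each of the 5 libraries left out in turn, an alternative chosen after seeing the data, Slc9a3, Slc2a5, Slc26a6, Slc6a8 and Slc3a2 stayed past the threshold in all 5 fits. Slc5a1 and Slc6a6 did so in 4, Slc6a19 in the 4 fits that hold Hyper replicate 2, and Slc6a20a, Slc7a8, Slc7a7 and Slc38a2 in 2.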

How the results depend on the processing

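Counts of called carriers stayed within 1.5 times in 168 alternative counts and moved further in 43, and no called carrier changed direction in any alternative of the 3 medium comparisons or of the colon. With the culture series as a replicate block, -VE against ENR gave 2 calls in stem cells, 2 in transit amplifying cells and 2 in progenitors (1 each without the block). Slc30a10 was added as higher in stem cells (1.09), Slc2a5 as lower in transit amplifying cells (-1.18) and Slc13a1 as higher in progenitors (1.82). Slc27a4 and Slc23a1 were added as lower in -VE enterocytes. Hyper against -VE gave 5 in enterocytes (3 without, Slc3a1 added as higher and Slc7a8 as lower). In goblet cells it gave 2 (1 without, Slc6a20a added as lower, -1.49). Hyper against ENR added Slc40a1 as higher in goblet cells (1.41). RLE scaling gave 2 for -VE against ENR in transit amplifying cells and 2 for Hyper against -VE in goblet cells. A pseudocount of 0.1 in the colon gave 9 large changes in place of 5. The causes were not tested. Leaving out 1 library gave 14 to 16 calls for Hyper against ENR, 6 to 8 for Hyper against -VE and 4 to 7 for -VE against ENR over all cells. In the same order the ranges were 8 to 9, 5 to 7 and 0 to 2 in stem cells, 8 to 11, 5 to 8 and 0 to 3 in transit amplifying cells, 10 to 12, 2 to 7 and 4 to 12 in enterocytes, and 1 to 4, 0 to 3 and 0 to 1 in goblet cells. Added after seeing the data, leave-outs gave 1, 1 and 0 throughout in enteroendocrine cells and, for -VE against ENR, 0 to 2 in progenitors and 0 in Paneth cells. The 12 differences between enterocytes and stem cells ranged from 6 without ENR replicate 2 to 17 without Hyper replicate 2. A group left with 1 library adds nothing to the spread in such a fit, and that library is assumed to vary like the other groups. The ranges are of counts, and the carriers called were not always the same. In enterocytes several calls were lost without Hyper replicate 2, as given above. The 79 Hyper enterocytes limit each comparison of Hyper-organoids within that class.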
